A study of Homo sapiens with 4 samples.

Results

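The 10 genes described here are the transcription factors EGR1, EGR3, KLF2, KLF6 and KLF10, the immediate early response genes IER2, IER3 and IER5, and the feedback regulators ZFP36 and DUSP1. They were taken by symbol from the 60614 gene IDs of the count tables and matched 10 of 10. They were selected on earlier values of the same F133V to wild-type difference in these libraries. That difference is therefore given for them as a description, with its standard error and no test. Expression was measured by RNA-seq of total RNA from DU145, an established prostate cancer line, in SPOP-F133V cells (2 libraries) and wild-type cells (2 libraries) grown in medium with fetal bovine serum, with no treatment named in the labels. SPOP recruits substrates to a ubiquitin ligase built on CUL3, and F133V lies in the domain that binds them. Whether the mutant or the wild-type cells are 1 clone, a pool or cells with added SPOP is not in the labels. Nor do the labels say whether replicates came from separate cultures. p-values and standard errors thus rest on the spread between these libraries, which may be technical. The fit shares that spread across genes, so they do not measure the spread of each gene alone. The mutation cannot be told apart from how the lines were made. In such bulk RNA, fewer cells expressing a gene and less RNA per cell cannot be told apart.

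Immediate-early genes are switched on within minutes of a growth factor, cytokine or stress signal, without the need for new protein. ERK and p38 kinases reach their promoters through serum response factor, its ETS-family partners and CREB. Their mRNAs are short-lived, and several of the proteins they encode shut the response down again. In prostate cancer EGR1 is best known as a zinc-finger transcription factor that is often abundant in tumours.

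Between 35173245 and 39642063 reads per library fell in genes. SPOP stood at 1171 and 1151 CPM (read counts scaled to a common library size with TMM factors) in F133V cells, against 844 and 906 CPM in wild-type cells. Marker sums, unlike the other CPM values, were scaled to the reads in genes of each library without TMM factors. Epithelial markers summed to 3833 and 4173 CPM in F133V libraries and to 3237 and 3198 CPM in wild-type libraries. Of these 7 markers, 6 were detected and KRT5 was at 0. Of the luminal prostate markers, KLK2 and KLK3 were at 0 in every library. Haematopoietic markers (6 of 7 detected, CD3E at 0) summed to 2.93 and 3.44 CPM in F133V libraries, against 1.77 and 2.19 CPM in wild-type libraries. Fibroblast and endothelial markers (8 of 10 detected, DCN and LUM at 0) summed to 8.94 and 9.47 CPM in F133V libraries, against 6.89 and 6.95 CPM in wild-type libraries. The part of such cells in the differences below was not tested. A trend along transcript GC content separated the genotypes and also the F133V libraries from each other, so each gene is given from a fit without and a fit with adjustment for GC content and transcript length.

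Among 9 genes with enough reads to be tested, 6 were higher in F133V cells, 1 was lower, and 2 lay near the wild-type level. The order of difference ran from EGR1 through ZFP36, DUSP1, IER2, IER3 and KLF2 to IER5, KLF6 and KLF10. By the call used across all genes (edgeR, Benjamini-Hochberg adjusted p under 0.05), 6 of the 9 were called higher, against 27.2% of 17539 tested genes. 1 of the 9 was called lower, against 27.6% of tested genes. With GC and length adjusted the calls of the 9 were again 6 higher and 1 lower, against 27.6% of 17299 genes higher and 24.6% lower. The 2 genotypes did not overlap for 8 of the 9 genes, where 78% of all tested genes did not overlap. Since the genes were chosen on this contrast, nothing is read from these counts. The median log2 fold change of the 9 was 0.69, and 0.40 GC-adjusted, beside 0.022 and 0.017 over all tested genes. Over all genes 4763 were called higher and 4841 lower. Upper-quartile scaling gave 6462 higher and 3831 lower and moved the median of all tested genes from 0.022 to 0.132. Without wild-type replicate 1 or 2, the genes called higher numbered 2819 and 2786.

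**Figure D1:**
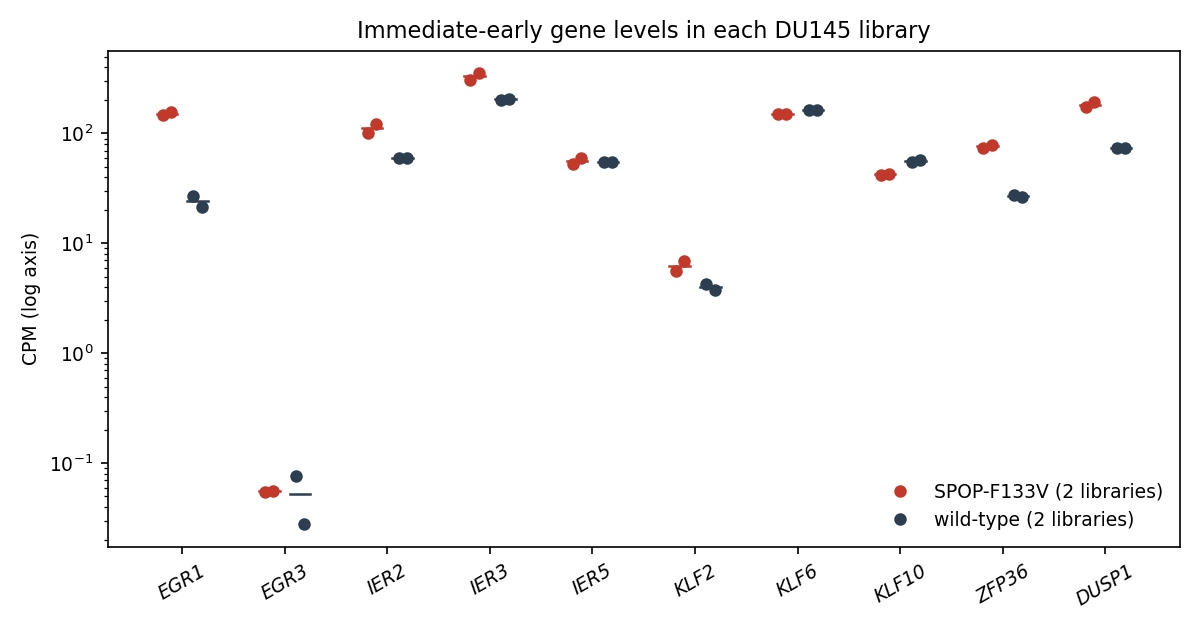
Level of each of the 10 genes in CPM (log axis) in every library; points are libraries, short bars the mean of 2, with SPOP-F133V left of wild-type. EGR1, ZFP36 and DUSP1 show the widest separation, IER5 overlaps, and EGR3 lies at the limit of 1 to 3 reads.

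EGR1 (ENSG00000120738.8), a zinc-finger factor that binds GC-rich sites and activates growth and stress genes, showed the widest difference. It lies on chromosome 5 at 138465490 to 138469315, plus strand (GRCh38, GENCODE release 29). Its counts were 5350 and 5550 reads in the F133V libraries, against 1061 and 762 in the wild-type libraries. Scaled, this was 146 and 157 CPM in F133V libraries, against 27.0 and 21.4 CPM in wild-type libraries. Both F133V libraries stood far above both wild-type libraries, and on the log2 scale replicate 2 minus replicate 1 was 0.11 in F133V cells, against -0.34 in wild-type cells. The log2 fold change was 2.64 ± 0.088 (SE), a fold of 6.25, and 2.44 ± 0.054 after GC adjustment, a fold of 5.44. EGR1 ranked 14 from the top among 17539 fold changes. Leaving out each library in turn gave log2 values from 2.48 to 2.82.

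The promoter of EGR1 is shown because it carries CArG boxes, the core of the serum response elements that serum response factor binds. The 250 bases before the RefSeq start are chr5:138465229-138465478, plus strand (GRCh38.p14). Capitals mark CArG boxes, the EGR site GCGNGGGCG and the CRE core TGACG, searched on both strands.
EGR1 promoter: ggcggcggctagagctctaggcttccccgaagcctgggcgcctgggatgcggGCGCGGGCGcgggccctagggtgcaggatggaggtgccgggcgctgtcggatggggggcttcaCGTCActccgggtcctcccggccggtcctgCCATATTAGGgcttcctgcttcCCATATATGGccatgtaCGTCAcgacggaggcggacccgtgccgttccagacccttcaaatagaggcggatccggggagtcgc
The window holds 2 CArG boxes, at -105 to -96 and -83 to -74. CRE cores stand on the minus strand at -135 to -131 and -66 to -62, and an EGR site on the plus strand at -198 to -190. Of 35116 RefSeq promoter windows of the same length, from 250 bases before to 50 after the start, 1.29% hold a CArG box and 0.0313% hold 2 or more. The EGR site is in 9.43% of windows and the CRE core in 24.6%. Promoters were at hand for 7 of the 10 genes, and EGR1 was the 1 with a CArG box in this window. The EGR site was also found in the KLF2 and KLF6 windows, and the CRE core in those of IER2 and DUSP1. No searched motif was found in the windows of ZFP36 and IER5.

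DUSP1 (ENSG00000120129.6), a nuclear phosphatase that switches off p38, JNK and ERK, lies on chromosome 5 at 172768090 to 172771195, minus strand. It had 6337 and 6826 reads in F133V libraries, and 2902 and 2644 in wild-type libraries. In CPM these were 173 and 193 in F133V libraries, against 73.9 and 74.1 in wild-type libraries. Both F133V libraries stood above the wild-type libraries, which were nearly equal to each other. The log2 fold change was 1.31 ± 0.067 (SE), and 1.08 ± 0.038 after GC adjustment.

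The DUSP1 promoter is shown as the counterpart of that of EGR1, since it was the only one of the 7 windows with a whole cyclic AMP response element, TGACGTCA, the site of CREB. The bases are chr5:172771196-172771445, minus strand (GRCh38.p14), read 5′ to 3′, with capitals on the CRE, its core TGACG and the TATA box TATAAA.
DUSP1 promoter: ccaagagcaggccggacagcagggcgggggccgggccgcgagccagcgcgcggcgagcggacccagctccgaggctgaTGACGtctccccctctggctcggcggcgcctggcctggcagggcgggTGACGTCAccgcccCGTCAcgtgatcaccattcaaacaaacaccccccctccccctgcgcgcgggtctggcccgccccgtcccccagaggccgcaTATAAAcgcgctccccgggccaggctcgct
The whole CRE lies at -125 to -118, overlapping 2 of the 4 cores, and the TATA box at -30 to -25. Whole CREs are in 1.85% of the 35116 windows and TATA boxes in 11.5%. The ETS site CCGGAAGT, present in 4.14% of windows, was found in 0 of the 7. These matches describe letters and say nothing of occupancy.

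ZFP36 (ENSG00000128016.7), known as tristetraprolin, binds AU-rich elements in mRNAs of cytokines and immediate-early genes and speeds their decay. It lies on chromosome 19 at 39406813 to 39409412, plus strand. Its counts were 2692 and 2790 in F133V libraries, and 1089 and 943 in wild-type libraries. In CPM it was at 73.3 and 79.1 in F133V libraries, against 27.7 and 26.4 in wild-type libraries. Both groups were tight and stood well apart. The log2 fold change was 1.49 ± 0.074 (SE), and 1.22 ± 0.047 after GC adjustment. After EGR1 it was the widest difference of the 9.

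AU-rich elements in the 3′ UTR, the letters ZFP36 binds, were counted in the longest coding transcript of each gene (GENCODE release 29). The pentamer AUUUA was present in 9 of the 10 genes, IER2 being the exception, and in 73.9% of 10696 protein-coding genes with a mean of at least 200 reads. The number ran from 1 in EGR1 and 3 in KLF2 to 6 in IER3 and KLF6 and 10 in IER5. The longer site UUAUUUA followed by 2 bases that are A or U was in 3 of the 10, IER5, ZFP36 and DUSP1, and in 22.5% of those protein-coding genes. It is shown, as T, in capitals, for ZFP36 itself and for DUSP1.
ZFP36 site 1: atgacgactTTATTTATTctaatatga
DUSP1 site 1: ggctggtccTTATTTATTtaacttcac
DUSP1 site 2: gaatataccTTATTTATTtttgtgtag
Counted from the stop codon, the sites begin at base 507 in ZFP36, and at bases 101 and 369 in DUSP1. ZFP36 and DUSP1 were higher in F133V cells, while IER5, with 4 such sites that overlap in one AU-rich run, had overlapping groups.

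IER2 (ENSG00000160888.7) and IER3 (ENSG00000137331.12) are rapidly induced by growth factors, IER3 also acting in cell survival and ERK signalling. IER2 lies on chromosome 19 at 13150415 to 13154908 (plus strand), IER3 on chromosome 6 at 30743199 to 30744554 (minus strand). IER2 was at 102 and 122 CPM in F133V libraries, against 60.2 and 59.9 CPM in wild-type libraries. IER3, the most abundant of the 10, was at 308 and 353 CPM in F133V libraries, against 203 and 205 CPM in wild-type libraries. For both, wild-type libraries nearly coincided, and F133V replicate 2 was the highest library. The log2 fold change of IER2 was 0.90 ± 0.077 (SE), and 0.62 ± 0.042 GC-adjusted. That of IER3 was 0.69 ± 0.064 (SE), and 0.40 ± 0.035 GC-adjusted. IER5 (ENSG00000162783.11, chromosome 1, 181088712 to 181092899, plus strand), a regulator of the heat shock factor HSF1, was at 52.6 and 59.5 CPM in F133V libraries, against 55.3 and 55.6 CPM in wild-type libraries. Its wild-type values lay between the F133V values, and the log2 fold change was 0.016 ± 0.073 (SE), and -0.033 ± 0.047 GC-adjusted. Antisense genes overlap IER2 and IER3 but had 9 to 20 and 12 to 21 reads per library, and the one over DUSP1 had 2 to 5. No source used here gives the strand setting of the counting.

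The KLF genes differed in direction. KLF2 (ENSG00000127528.6, chromosome 19, 16324817 to 16327874, plus strand), a factor of quiescence and of vessel lining cells, had the lowest CPM of the tested 9. It had 206 and 246 reads in F133V libraries, and 168 and 134 in wild-type libraries. In CPM it was at 5.61 and 6.97 in F133V libraries, against 4.28 and 3.76 in wild-type libraries. The groups did not overlap, with F133V replicate 2 the highest library and wild-type replicate 2 the lowest. Its log2 fold change was 0.64 ± 0.13 (SE), a fold of 1.56, and 0.30 ± 0.12 after GC adjustment, a fold of 1.23. KLF6 (ENSG00000067082.15, chromosome 10, 3775996 to 3785281, minus strand), a tumour suppressor in prostate cancer, was at 150.2 and 149.7 CPM in F133V libraries, against 164.0 and 165 CPM in wild-type libraries. That small step was wider than the spread within either genotype, with a log2 fold change of -0.13 ± 0.059 (SE), but it was -0.032 ± 0.035 after GC adjustment. Among the alternatives that kept all libraries, KLF6 was called lower only with RLE size factors. It was also called lower when either F133V library was left out, but there the spread rests on the wild-type pair alone. Leaving out each library in turn gave log2 values from -0.168 to -0.132.

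KLF10 (ENSG00000155090.15, chromosome 8, 102648779 to 102655902, minus strand), an early target of TGF-beta, was the only gene of the 9 called lower. It stood at 42.1 and 43.1 CPM in F133V libraries, against 54.9 and 57.8 CPM in wild-type libraries. Both F133V libraries were below both wild-type libraries. The log2 fold change was -0.40 ± 0.070 (SE) and hardly moved with GC adjustment, at -0.38 ± 0.046. EGR3 (ENSG00000179388.9, chromosome 8, 22687659 to 22693302, minus strand), a relative of EGR1, had 2 and 2 reads in F133V libraries, and 3 and 1 in wild-type libraries. It was not tested, and no fold is given because every library was at the limit of detection, 3 counts.

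**Figure D2:**
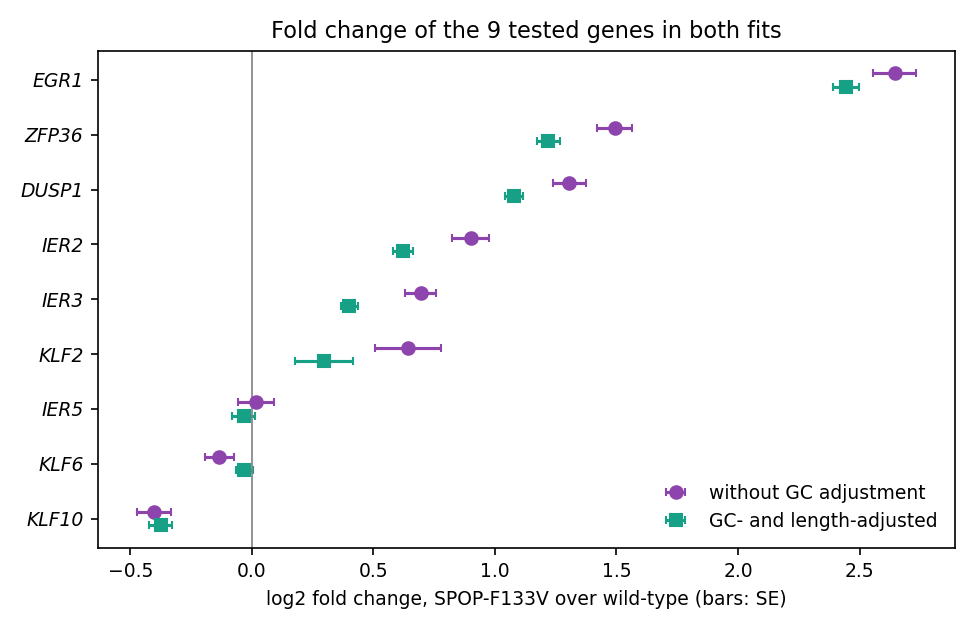
Log2 fold change of SPOP-F133V over wild-type for the 9 tested genes (x axis), without adjustment (circles) and with GC and length adjusted (squares); bars are SE. Values run from 2.64 for EGR1 to -0.40 for KLF10 without adjustment, and 7 of the 9 are lower after adjustment.

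Levels between genes were compared per kilobase of the longest transcript (CPM per kb), which assumes that this transcript is the one used. In F133V cells the order of the 9 was IER3 at 245 ± 23.3, DUSP1 at 90.6 ± 7.28, EGR1 at 48.3 ± 2.60, ZFP36 at 42.7 ± 2.27, IER2 at 38.2 ± 5.01, KLF6 at 32.2 ± 0.087, IER5 at 13.4 ± 1.16, KLF10 at 11.7 ± 0.20 and KLF2 at 3.12 ± 0.48 CPM per kb (SD, n = 2). In wild-type cells it was IER3 at 151 ± 0.86, DUSP1 at 36.7 ± 0.062, KLF6 at 35.4 ± 0.17, IER2 at 20.5 ± 0.079, KLF10 at 15.4 ± 0.58, ZFP36 at 15.2 ± 0.52, IER5 at 13.2 ± 0.050, EGR1 at 7.71 ± 1.28 and KLF2 at 1.99 ± 0.18 CPM per kb (SD, n = 2). EGR1 thus stood at place 3 in F133V cells and at place 8 in wild-type cells. IER3, DUSP1, IER5 and KLF2 kept their places at 1, 2, 7 and 9. Among neighbours, ZFP36 and IER2 overlapped in the F133V libraries, and KLF10 and ZFP36 in the wild-type libraries.

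The GC content of the longest transcripts ran from 45.9% in KLF6 to 65.2% in KLF2, with a median of 55.2%, against 48% over the expressed protein-coding genes. Most of the 9 tested genes thus stood where the trend of all expressed genes was higher in F133V cells, and the part of this trend in each difference was not tested beyond the adjusted fit. In the bin of genes with 54.6% to 58.0% GC, which holds EGR1, ZFP36 and DUSP1, the median log2 fold change of expressed genes was 0.185 and the upper quartile 0.363. In the bin above 61.4%, which holds IER2 and KLF2, the median was 0.293 and the upper quartile 0.475. IER5 and KLF6 lay between the quartiles of their bins, and KLF10 below the lower quartile of its own, -0.226. The genes are short, with a median of 2 exons against 9 over the expressed protein-coding genes.

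The F133V libraries also differed from each other in most of these genes. On the log2 CPM scale, replicate 2 exceeded replicate 1 by 0.31 in KLF2, 0.27 in IER2, 0.19 in IER3, 0.18 in IER5 and 0.16 in DUSP1, and by 0.11 in EGR1 and ZFP36. Over 11788 expressed genes the median of this difference was -0.0044, with quartiles at -0.125 and 0.0961. After GC adjustment the difference was 0.020 in EGR1, 0.0027 in ZFP36, 0.074 in DUSP1, 0.084 in IER3, 0.12 in IER2, 0.13 in KLF2 and 0.15 in IER5. Between wild-type libraries, replicate 2 minus replicate 1 was -0.34 in EGR1 and -0.19 in KLF2, and -0.34 and -0.18 after GC adjustment. The absolute difference between wild-type libraries was at most 0.176 in 95% of expressed genes, and EGR1 and KLF2 lay outside that range.

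**Figure D3:**
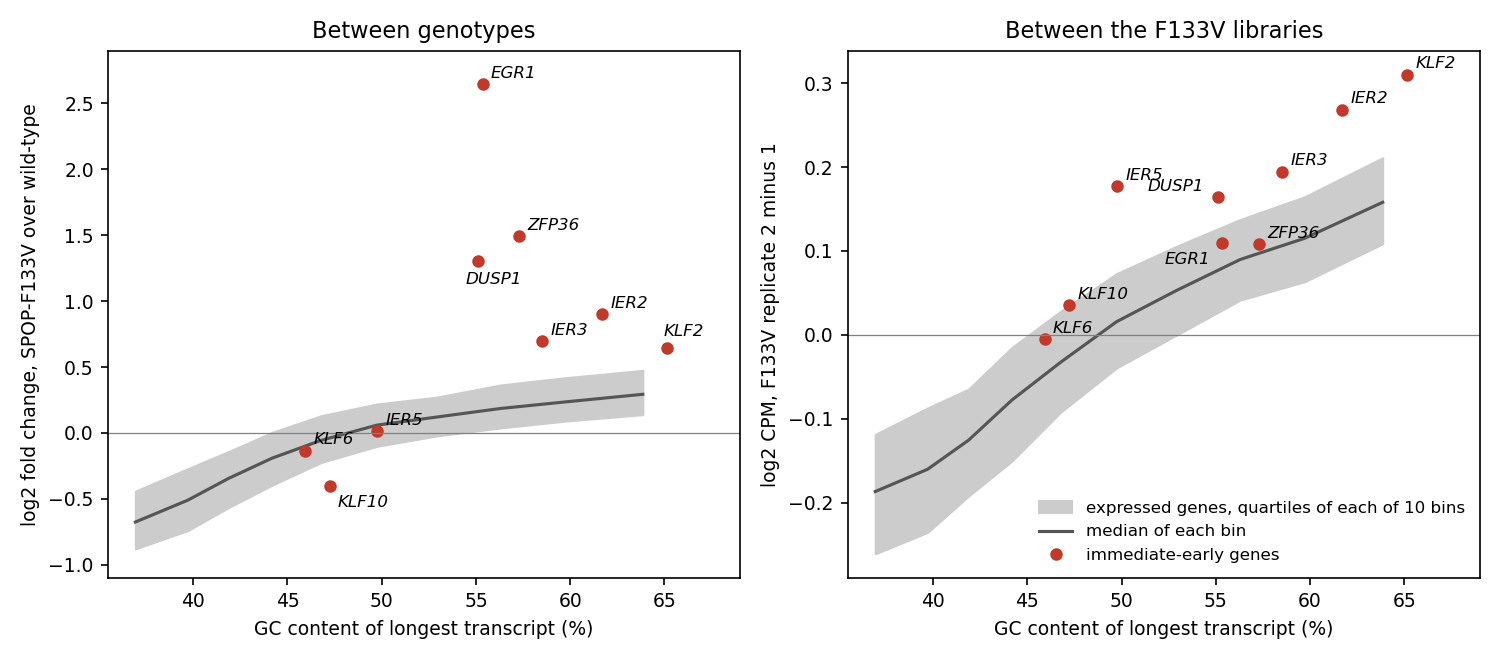
Left, log2 fold change of SPOP-F133V over wild-type against transcript GC content (%); right, log2 CPM of F133V replicate 2 minus replicate 1 against the same axis. The grey band spans the quartiles and the line the median of 10 bins of expressed genes, and red points are the 9 tested genes. On the left, 6 of them stand above the band, in the difference on which the genes were selected.

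Relatives of the 10 genes showed mixed differences. For the lists here and below, the share over all tested genes was 27.2% called higher and 27.6% lower. GC-adjusted, these shares were 27.6% and 24.6%. The list counts were not tested against them. Of 3 tested EGR relatives and NAB corepressors, 1 fell and the others did not pass. NAB2, a corepressor that EGR1 itself induces, was at 39.5 ± 0.511 CPM in F133V cells, against 39.0 ± 0.307 CPM in the wild-type (SD, n = 2 each). It was called lower after GC adjustment, at -0.26 (edgeR adjusted p = 3.00e-05). NAB1 fell (log2 fold change -0.41, edgeR Benjamini-Hochberg adjusted p = 1.21e-04), but gave 0.084 after GC adjustment (adjusted p = 0.102). EGR2 averaged 0.527 CPM in F133V cells, against 0.307 CPM in wild-type cells and was not called, and EGR4 had 3 to 9 reads per library. Of 19 tested KLF and SP factors, 6 rose, 6 fell and 7 did not pass, with a median of 3.5e-05. GC-adjusted, 8 were higher and 6 lower, with a median of 0.12. KLF13 and SP6 were among the 6 that rose, by 0.37 and 0.72 (GC-adjusted 0.20 and 0.47). The 4 of lowest adjusted p all fell. KLF5, a factor of epithelial proliferation, fell to 36.6 CPM in F133V cells, against 59.5 CPM in wild-type cells, a log2 fold change of -0.70 (GC-adjusted -0.67). KLF7, SP3 and SP4 fell by 0.77, 0.81 and 0.97 on the log2 scale, and by 0.47, 0.24 and 0.38 after GC adjustment. The adjusted p-values of these 4 lay between 2.74e-08 and 1.28e-07 (edgeR, Benjamini-Hochberg). DESeq2 called 3 of the KLF and SP factors higher.

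Of 9 other phosphatases of MAP kinases tested, 5 rose and the other 4 did not pass, and the median log2 fold change was 0.45 (GC-adjusted, 4 higher, 2 lower and a median of 0.42). DUSP6, which acts on ERK in the cytoplasm, rose by a log2 fold change of 0.70 ± 0.082 (SE), reaching 24.5 CPM in F133V cells against 15.1 CPM in wild-type cells. DUSP9, also directed at ERK, rose by 0.76, and DUSP8 and DUSP16, directed at JNK and p38, by 0.77 and 0.45 (adjusted p from 4.77e-07 to 1.21e-04, edgeR with Benjamini-Hochberg). GC-adjusted these 4 gave 0.76, 0.42, 0.49 and 0.50. DUSP4 and DUSP7, at -0.14 and -0.19, did not pass and were called lower after adjustment, at -0.21 and -0.44. Without F133V replicate 2 the count of lower phosphatases was 2. ZFP36L1, a paralog of ZFP36, rose to 292 CPM in F133V cells, against 181 CPM in wild-type cells (log2 fold change 0.69, GC-adjusted 0.63, edgeR adjusted p = 5.30e-09). ZFP36L2 did not pass (-0.079, GC-adjusted -0.25), and IER5L rose by 0.40 but missed after adjustment (0.082, adjusted p = 0.145).

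Other immediate-early genes were described from lists written with earlier results of these data known. Their counts stand beside 27.2% of all tested genes called higher and 27.6% called lower. Of 25 tested transcription factors, 14 rose, 4 fell and 7 did not pass, with a median log2 fold change of 0.22. GC-adjusted, 13 were higher and 7 lower, with a median of 0.093. FOS, the AP-1 partner of JUN, was at 12.8 CPM in F133V cells, against 1.57 CPM in wild-type cells (log2 fold change 3.02, GC-adjusted 2.86). HES1, a repressor and Notch target, rose by 1.35 (GC-adjusted 1.23), and CEBPB and JUNB by 0.80 and 0.83 (GC-adjusted 0.44 and 0.49). The adjusted p-values of these 4 lay between 3.46e-12 and 1.12e-08 (edgeR, Benjamini-Hochberg). Of 41 tested signalling and secreted immediate-early genes, 14 rose, 9 fell and 18 did not pass, with a median of 0.10 (GC-adjusted 14 higher, 12 lower, median -0.0067). F3, tissue factor, fell by 1.02 (GC-adjusted -0.83) and the survival protein MCL1 by 0.72 (GC-adjusted -0.58). The kinase PIM1 rose by 0.87 (GC-adjusted 0.65) and the pseudokinase TRIB1 by 0.72 (GC-adjusted 0.60), with adjusted p from 2.96e-10 to 2.42e-07 for the 4 (edgeR, Benjamini-Hochberg). Without wild-type replicate 2, 13 of the signalling and secreted genes were called in place of 23, and without wild-type replicate 1 or 2 the lower transcription factors numbered 2.

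Upstream of these genes, 2 of 14 tested serum response and CREB factors rose and 8 fell, with a median log2 fold change of -0.25 (GC-adjusted 2 higher, 8 lower, median -0.14). SRF itself was at 95.1 ± 4.42 CPM in F133V cells, against 119 ± 7.59 CPM in the wild-type (SD, n = 2 each), a log2 fold change of -0.32, and -0.57 after GC adjustment. Without wild-type replicate 1 the SRF call was lost, at -0.26 (edgeR adjusted p = 0.0939, against 3.38e-04 with all libraries). Its partners ELK3 and MRTFB fell by 0.66 and 0.60 (GC-adjusted -0.36 and -0.32). CREB1 and ELK4 fell by 0.79 and 0.68 but gave -0.059 and -0.019 after GC adjustment (adjusted p = 0.315 and 0.752, edgeR with Benjamini-Hochberg). Of 24 tested kinases of the ERK, p38 and JNK cascades, 11 rose, 7 fell and 6 did not pass, with a median of 0.15 (GC-adjusted 9 higher, 4 lower, median 0.039). RPS6KA3 and MAP2K4 fell by 0.82 and 0.74 (GC-adjusted -0.27 and -0.39), and MAPK11 rose by 0.59 (GC-adjusted 0.29). MAPK8, at -0.42, changed sign to 0.22 with GC adjustment (edgeR adjusted p = 4.12e-05). Without wild-type replicate 1 or 2, the called genes numbered 6 and 5 among the serum response and CREB factors, and 9 and 8 among the kinases.

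Downstream, 13 of 22 tested mRNAs reported as ZFP36 targets rose, 3 fell and 6 did not pass, with a median log2 fold change of 0.27 (GC-adjusted 15 higher, 2 lower, median 0.22). FOS and PIM1, given above, were among the higher, as was CSF2, at 13.7 CPM in F133V cells, against 6.77 CPM in wild-type cells (log2 fold change 1.01, GC-adjusted 0.86). HIF1A fell by 0.98 (GC-adjusted -0.33). Of 25 tested factors that remove poly(A) tails, bind AU-rich elements or act elsewhere in mRNA decay, 1 rose and 16 fell (median -0.22). GC-adjusted, however, 10 were higher and 9 lower, with a median of 0.032. TIA1 and XRN1 were still called lower after adjustment, but their log2 fold changes shrank from -0.85 and -0.98 to -0.20 and -0.27. CNOT6 and DDX6 lost the call (-0.58 and -0.46, GC-adjusted 0.00080 and 0.055). Without wild-type replicate 1 or 2, 11 of these factors were called in each case. Of 12 genes reported as EGR1 targets, 8 rose, 2 fell and 2 did not pass, with a median of 0.29 (GC-adjusted 9 higher, 3 lower, median 0.31). The matrix protease MMP14 rose to 529 CPM in F133V cells, against 276 CPM in wild-type cells (log2 fold change 0.94, GC-adjusted 0.70). The prostaglandin synthase PTGES rose by 0.70 (GC-adjusted 0.43) and the growth factor PDGFB by 0.63 (GC-adjusted 0.37), whereas F3 fell. The adjusted p-values of MMP14, PTGES and PDGFB lay between 2.74e-10 and 1.37e-06 (edgeR, Benjamini-Hochberg). In all, 15 genes stood in more than 1 of the lists.

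**Figure D4:**
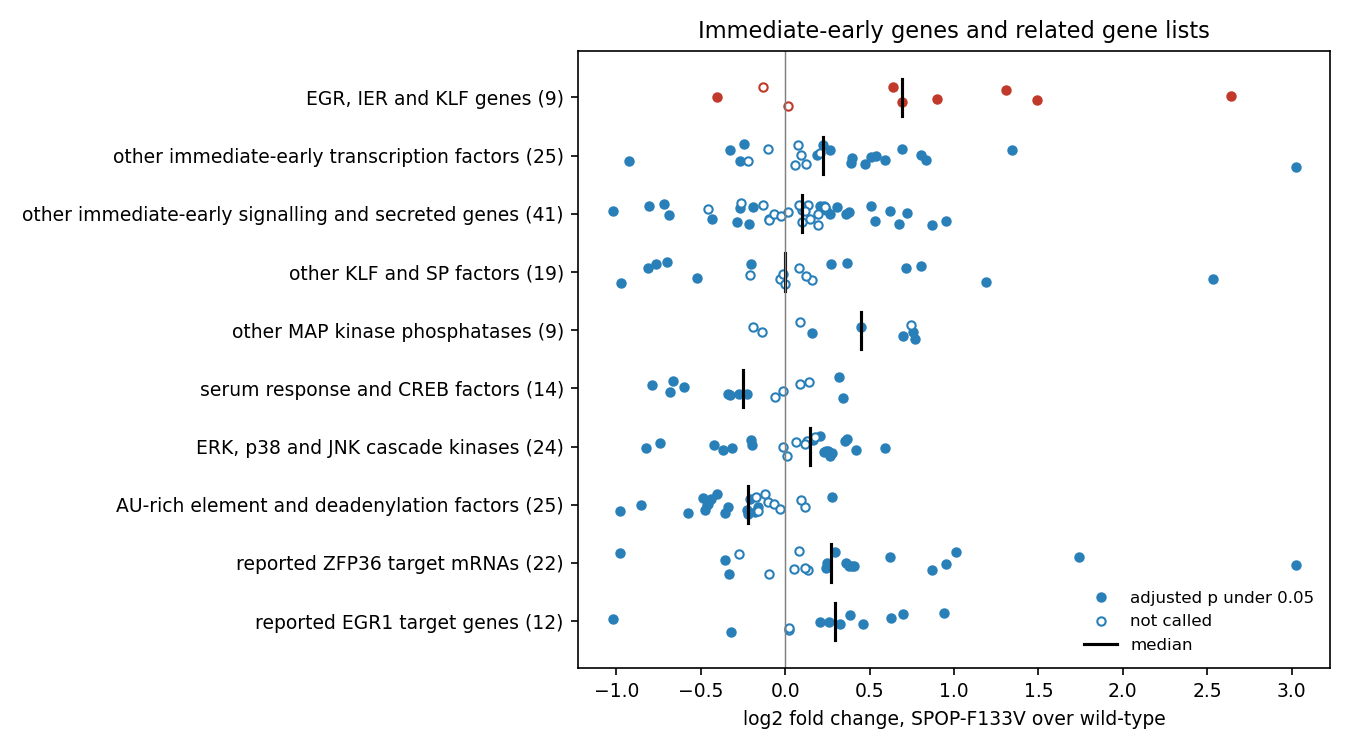
Log2 fold change of SPOP-F133V over wild-type (x axis, not GC-adjusted) for each tested gene of the list named on the left, with the number tested in brackets; filled points were called by edgeR at an adjusted p under 0.05, open points were not, and black bars are medians. The lists with 3 tested genes (EGR relatives and NAB corepressors, IER and ZFP36 relatives) are not drawn. Each list drawn except the MAP kinase phosphatases holds called genes on both sides of 0. The medians run from -0.25 for the serum response and CREB factors to 0.69 for the EGR, IER and KLF genes. The latter were selected on this difference, so their place is not a result.

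Heat shock genes, a further group that reacts quickly to the state of the culture, held 5 higher and 5 lower genes among 12 tested, with a median log2 fold change of -0.0093 (GC-adjusted 1 higher, 5 lower). HSP90AA1, a cytosolic chaperone, fell to 1717 CPM in F133V cells, against 3096 CPM in wild-type cells (log2 fold change -0.85, GC-adjusted -0.73, edgeR adjusted p = 3.17e-09). The part of culture conditions in the differences above was not tested.

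The genes whose pattern over the 4 libraries was nearest to that of EGR1 were found by the distance between log2 CPM profiles centred on their means, among 11079 other genes with an ordinary symbol and at least 5 CPM. FOS was the nearest, at a distance of 0.40 log2 units, followed by KRT81 at 0.46, DEPP1 at 0.67, PADI2 at 0.78 and LCN2 at 0.88. To the median profile of the 9 tested genes ADGRA2 was nearest at 0.037, then DUOX1 at 0.038, PRR36 at 0.048, KIF21B at 0.051 and REEP6 at 0.053. All these distances rest on the same 4 libraries and include the F133V to wild-type difference on which EGR1 and the other members were selected. The log2 fold changes of the genes nearest to EGR1 ran from 3.02 in FOS to 1.8 in LCN2, against 2.64 in EGR1. Both rankings thus largely list genes with a similar difference between genotypes and are no separate result. Whether these genes share regulation with EGR1 or the other members was not tested.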

How the data were processed

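RNA-seq libraries were grouped by the genotype label: SPOP-F133V, 2, and wild-type, 2. The deposited files hold unnormalized counts, 1 value per gene and library. TopHat2 2.0.10, HTSeq 0.6.0 and hg38 are named by the submitters' processing notes, while no source used here gives the annotation release or strand setting. Reads over no gene (6.12% to 6.53%), over several genes (3.50% to 3.73%) and with several alignments (13.6% to 16.6%) stayed out of library sizes and tests.

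Genotypes were compared in edgeR 4.0.16 (R 4.3.3): filterByExpr defaults, TMM scaling, quasi-likelihood F-test, two-sided, Benjamini-Hochberg adjustment over all tested genes, threshold 0.05. Fold changes are F133V over wild-type on the log2 scale and SE is the fold change over the square root of F. In the GC-adjusted fit, a smooth (mgcv 1.9.3, basis dimension 8) of each library's log2 deviation on transcript GC content and length, fitted above a mean log2 CPM of 2 and centred on the median, entered as an offset. Such an offset also removes any genotype difference that follows GC content. Of 60614 IDs, 60444 had a symbol and 58368 a GENCODE release 29 transcript. Promoters are RefSeq windows of GRCh38.p14. DESeq2 1.42.0, other scalings and filters, leaving out each library and a replicate block were alternatives.

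On simulated counts of 17252 genes the test called 87 of 98 genes with a 2-fold change, 72 of 100 with a 1.5-fold change and 6 of 17054 with none. The simulation drew genes independently, with the same dispersion for every gene and both genotypes. It held 200 drawn changes and no GC trend. These libraries differ from that setting, so its rates do not carry over to them. Replicates were no copies: chi-square over its degrees of freedom was 7.68 in F133V and 1.64 in wild-type. The members, lists (16, holding 234 genes) and tests were chosen with earlier results of these data known. Named genes were SPOP, the 10 members, tested relatives, up to 4 called genes of lowest adjusted p per list, and the 5 nearest profiles. SRF was named after its values were seen. The summed level of the luminal prostate markers is not reported here.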

Additional observations from a re-analysis of the deposited data

How the results depend on the processing

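The 6 members called higher kept their direction and call under each alternative tried. Among recomputed member values 0 changed the sign of a called gene, 78 stayed within the spread between replicates and 30 moved by more than it, mostly under GC adjustment and upper-quartile scaling. KLF6 was added to the lower members with RLE factors, making 2. It was also called lower without either F133V library, where the spread rests on the wild-type pair alone. The count of called genes, 9604, ran from 6337 to 10856 when 1 library was left out, and genes called higher, 4763, ran from 2786 to 5225 then and were 2954 with DESeq2. Leaving out 1 library, the called signalling and secreted genes numbered 13 to 26, the serum response and CREB factors 5 to 12, the cascade kinases 8 to 20 and the decay factors 11 to 24. With upper-quartile scaling 2 of the EGR relatives and NAB corepressors were called. GC adjustment reversed NAB1 (0.084), MAPK8 (0.222) and DDX6 (0.055), and the CNOT6 log2 fold change became 7.97e-04; with the replicate block as well these were 0.084, 0.223, 0.055 and, for CNOT6, 0.000841; the cause was not tested. Same-numbered libraries did not deviate together (correlation of their deviations -0.053, and 0.0051 GC-adjusted). With so few libraries this cannot show whether they were made in pairs, which the labels do not say. With the replicate block 9365 genes were called, and 9006 with the block and GC adjustment. Of the recomputed values of other named genes, 671 kept direction and call, 24 lost the call and 8 changed sign. With 2 libraries per genotype the fit borrows its spread across genes, and EGR3 lies under what this depth can compare.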
